A study of Bos taurus with 9 samples.

Results

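Matrix metalloproteinases (MMPs) and their tissue inhibitors (TIMPs) were followed in bovine uterine gland fragments cultured in 3 dimensions. The members were 10 genes taken by name from the 20679 genes of the deposited tables, namely MMP1, MMP3, MMP7, MMP9, MMP11, MMP13, MMP14, TIMP1, TIMP2 and TIMP3. RNA-seq was performed on day 5 of culture in 9 libraries. The CYST group (3 libraries) was grown in Matrigel, a basement membrane matrix made by mouse cells, without epidermal growth factor (EGF), and its fragments formed cysts. The MAT group (3 libraries) was grown in Matrigel with EGF, in which fragments formed uterine gland-like (UG-LIKE) structures. The MAT + COL group (3 libraries) was grown with EGF in Matrigel to which bovine type I collagen had been added. The fragments in every group had been isolated with collagenase from abattoir uteri of the luteal phase, and none of the groups was fresh tissue. The sample titles number the replicates 1 to 3 in each group, whereas the deposited columns carry the numbers 1, 2 and 4 (CYST), 1, 3 and 7 (MAT) and 2, 4 and 8 (MAT + COL), and the paired results below follow the titles.

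MMPs are zinc-dependent endopeptidases that cleave the extracellular matrix and also growth factors, cytokines and cell surface proteins. Most are secreted as inactive proenzymes, so that transcript levels are not enzyme activity. TIMPs bind the active enzymes and block them. In the endometrium, the balance of MMPs and TIMPs is known for its part in tissue breakdown and rebuilding over the reproductive cycle and at implantation.

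The collagenase MMP13 rose in UG-LIKE structures, whereas the levels of the stromelysin MMP3, the gelatinase MMP9 and the collagenase MMP1 were lower. MMP13 passed the edgeR test without pairing in both comparisons with CYST, and no other member did. Of all genes tested, 1.79% passed it in MAT versus CYST and 1.49% in MAT + COL versus CYST. The decreases passed the edgeR test when libraries of the same replicate number were compared with each other. This held in MAT for MMP3, MMP9 and MMP1, beside 10.6% of all genes tested. In MAT + COL it held for MMP3 and MMP9, beside 5.26%. In DESeq2, MMP3 and MMP9 passed without pairing in both comparisons, beside 9.68% and 11.6% of the genes it tested. None of the 10 members passed the test between MAT + COL and MAT, where 0% of all genes tested passed. No TIMP passed in any comparison.

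**Figure D1:**
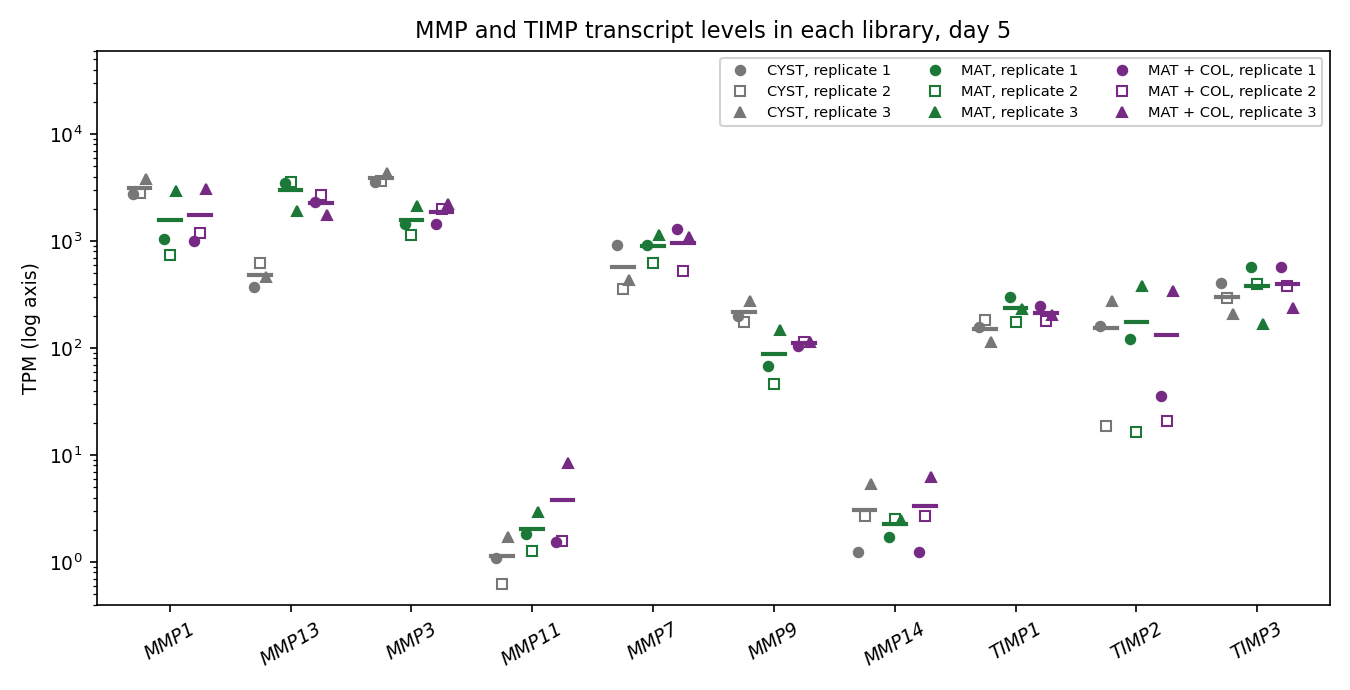
TPM (log axis) of the 10 members; each point is 1 library, its shape the replicate number and its colour the group, and each bar is the mean of 3 libraries. The CYST libraries lay between 375 and 618 TPM for MMP13, below the 6 libraries with EGF, and between 3588 and 4310 TPM for MMP3, above them.

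Levels are given in TPM, a read abundance corrected for gene length and scaled to the same total in each library, so that genes can be ranked within a library. The CYST libraries held high levels of the transcripts of MMP3 (3852 ± 399 TPM, mean ± SD, n = 3) and MMP1 (3124 ± 577 TPM). The ranges of these 2 genes overlapped. MMP7 (570 ± 310 TPM), MMP13 (483 ± 124 TPM), TIMP3 (301 ± 98.6 TPM), MMP9 (217 ± 53.5 TPM), TIMP2 (152 ± 130 TPM) and TIMP1 (151 ± 34.2 TPM) followed, and each overlapped the next in this order. MMP14 and MMP11 came last, with 3.08 ± 2.08 and 1.14 ± 0.54 TPM. In MAT, MMP13 was first with 2976 ± 917 TPM, and its range overlapped that of MMP1 (1566 ± 1184 TPM), which in turn overlapped that of MMP3 (1564 ± 490 TPM). MMP7 (895 ± 260 TPM) was below MMP3 and above TIMP3 in every MAT library. In MAT + COL the order of the means was MMP13, MMP3, MMP1, MMP7, TIMP3, TIMP1, TIMP2, MMP9, MMP11 and MMP14, and among these neighbours the ranges of MMP9 and MMP11 alone did not overlap.

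The total counts per library ranged from 6568968 (MAT replicate 1) to 17948600 (MAT + COL replicate 2), and the 3 MAT + COL libraries had at least 16665013. Epithelial identity was checked with 10 markers, which were detected in every library, with a summed level of 20194 to 22653 TPM in CYST, 31906 to 49346 TPM in MAT and 32440 to 43729 TPM in MAT + COL. These sums were mostly KRT8, KRT19 and KRT7, with means of 8314, 7751 and 3389 TPM in CYST and 15490, 17274 and 4268 TPM in MAT. CLDN4 (852 and 709 TPM) and PAX8 (45.0 and 36.8 TPM) alone had lower means in MAT than in CYST. All 10 markers of stromal fibroblasts were also detected in every library, with sums of 2273 to 4889, 1212 to 3817 and 2246 to 4330 TPM, so that RNA of stromal type was part of these cultures. Sums were 149 to 188, 40.5 to 88.6 and 73.5 to 94.9 TPM for 5 smooth muscle markers, 69.7 to 97.7, 75.6 to 159 and 78.0 to 138 TPM for 7 leukocyte markers, and 12.8 to 18.4, 8.60 to 26.3 and 14.4 to 27.5 TPM for 5 endothelial markers. CD3E, a defining T cell marker, was listed at 0 in all CYST libraries, in MAT replicates 1 and 3 and in MAT + COL replicate 1, and the pan-leukocyte marker PTPRC did not exceed 1.19 TPM, while LCP1 was at 33.8 to 110.4 TPM, CD14 at 13.2 to 45.2 TPM and CD68 at 2.21 to 10.2 TPM. In bulk RNA, fewer cells of a type and less RNA per cell cannot be told apart.

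The effect of EGF in Matrigel was examined by comparing MAT with CYST. MMP13, a collagenase that cleaves fibrillar collagens, was present at 375, 618 and 456 TPM in CYST replicates 1 to 3 and at 3452, 3556 and 1919 TPM in MAT replicates 1 to 3. The groups did not overlap, and MAT replicate 3 was the lowest of the libraries in its group. The Log2FC was 2.61 ± 0.30 (SE; adjusted P = 0.0191, edgeR quasi-likelihood test with Benjamini-Hochberg adjustment over all genes tested). In this test 1.79% of the 12074 genes passed an adjusted P of 0.05, and MMP13 was the 1 member of 10 that did. Between libraries of the same number, MMP13 was 9.20, 5.76 and 4.21 times as high in MAT. The adjusted P was 0.0707 without CYST replicate 1, 0.0702 without CYST replicate 2 and 0.0907 without MAT replicate 1, in fits that called 5 to 9 genes in all, and the Log2FC stayed between 2.45 and 2.83 whichever library was left out.

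MMP3, stromelysin 1, which degrades proteoglycans and laminin and can activate other proenzymes, was present at 3588, 3658 and 4310 TPM in CYST and at 1437, 1149 and 2105 TPM in MAT. The groups did not overlap. The Log2FC was −1.32 ± 0.29 with an adjusted P of 0.0619. With the replicate number as a block in the model (the paired analysis, or replicate block), the Log2FC was −1.35 ± 0.17 and the adjusted P was 0.00725. MMP3 also passed without pairing in DESeq2 (adjusted P = 0.00113), which called 9.68% of the 12752 genes it tested. It passed too in limma on log2(TPM + 1) (adjusted P = 0.0358), which called 1.98% of 12074 genes.

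MMP9, gelatinase B, which cleaves denatured collagen and collagen IV, was present at 197, 175 and 277 TPM in CYST and at 68.3, 46.3 and 148 TPM in MAT. The highest MAT library, replicate 3, was below the lowest CYST library. The Log2FC was −1.34 ± 0.47 (adjusted P = 0.155) without the block and −1.46 ± 0.19 (adjusted P = 0.00756) with the replicate block, and DESeq2 gave an adjusted P of 0.0348 without pairing.

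MMP1, interstitial collagenase, was present at 2768, 2816 and 3790 TPM in CYST and at 1040, 737 and 2922 TPM in MAT. The groups overlapped because MAT replicate 3 lay above CYST replicates 1 and 2, although it was below the CYST library of its own number. The MAT level was 0.376, 0.262 and 0.771 times the CYST level in replicates 1 to 3. The Log2FC was −1.02 ± 0.52 (adjusted P = 0.312) without the block and −1.25 ± 0.26 (adjusted P = 0.0265) with the replicate block.

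With the replicate block, 4 of the 10 members passed, MMP13 upward and MMP1, MMP3 and MMP9 downward, beside 10.6% of all genes tested. Groups that did not overlap in TPM were found for 3 of 10 members (MMP13, MMP3 and MMP9), beside 23.7% of all genes tested. The median Log2FC of the 10 members was 0.21 without the block and 0.08 with it, and that of all genes tested was 0.01 in both fits. When the libraries numbered 1 were left out of the paired fit, a check chosen after seeing the data, 36 of 12453 genes were called and no member was (adjusted P = 0.0513 for MMP13, 0.118 for MMP3, 0.111 for MMP9 and 0.215 for MMP1). The Log2FC in that fit was 2.31, −1.34, −1.40 and −1.14 in the same order. Without the libraries numbered 2, MMP1 had a Log2FC of −0.97 and an adjusted P of 0.0691, and the other 3 genes still passed.

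Markers of other cell types moved in the same comparison. In the paired analysis the stromal proteoglycan DCN fell (Log2FC −1.12 ± 0.23, adjusted P = 0.0252), the smooth muscle marker TAGLN fell (−1.57 ± 0.20, adjusted P = 0.00719), and the mesenchymal filament VIM rose (1.05 ± 0.16, adjusted P = 0.0125). The other 8 stromal markers did not pass, among them COL1A2 (−0.77 ± 0.36, adjusted P = 0.211), and the median Log2FC of the 10 was −0.77. The other smooth muscle markers did not pass, and the median Log2FC of that list was −0.97. Of the epithelial markers, 3 rose, EPCAM (0.70 ± 0.17, adjusted P = 0.0401), KRT8 (0.88 ± 0.19, adjusted P = 0.0315) and KRT19 (1.09 ± 0.24, adjusted P = 0.0318). The other epithelial markers did not pass, and CLDN4 (−0.26 ± 0.22) and PAX8 (−0.24 ± 0.20) alone were lower. The median Log2FC of the epithelial list was 0.47. The part of these shifts in the MMP values was not tested.

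**Figure D2:**
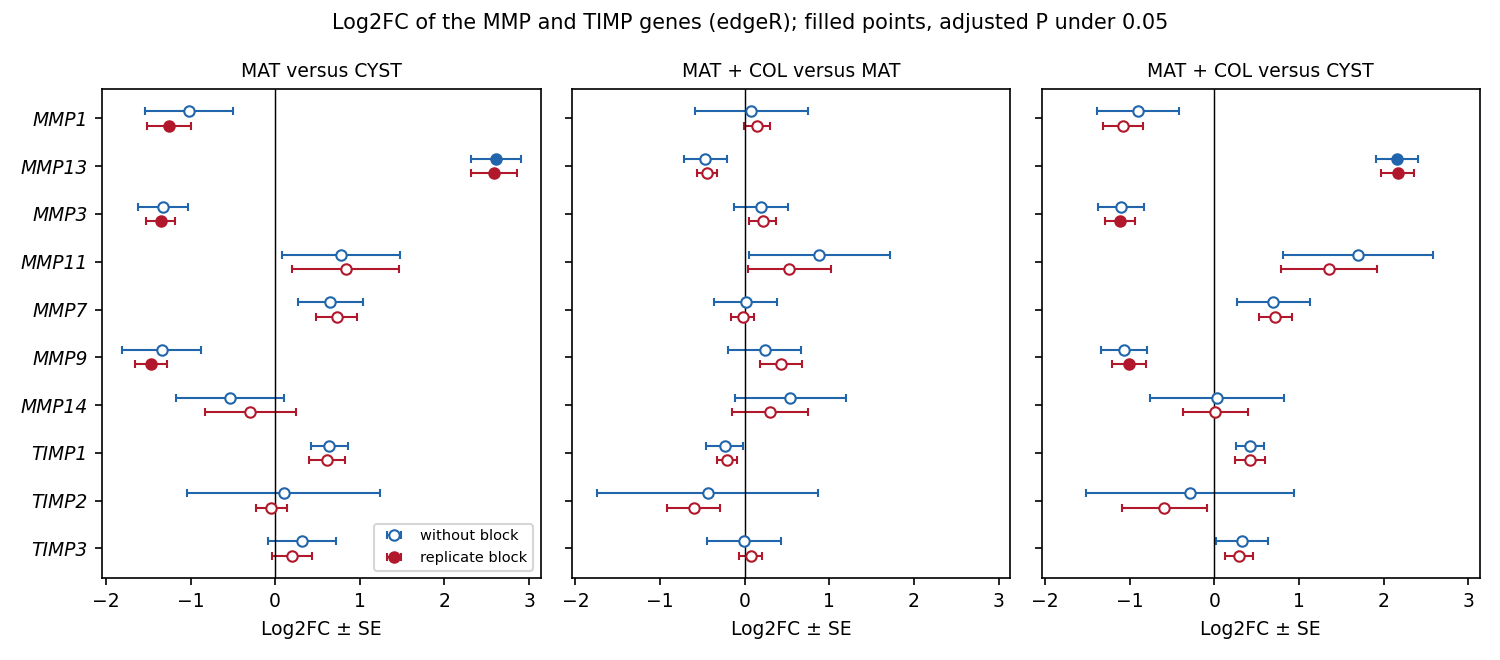
Log2FC ± SE of the 10 members in the 3 comparisons, without the block (blue, upper) and with the replicate block (red, lower); filled points had an adjusted P under 0.05 over all genes tested. MMP13 is filled in both fits in the comparisons with CYST, MMP3 and MMP9 with the block alone, MMP1 with the block in MAT versus CYST alone, and no point is filled in MAT + COL versus MAT.

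The other 3 MMPs did not pass in either fit. MMP7, matrilysin, an epithelial protease without the hemopexin domain of most MMPs, was present at 925, 353 and 433 TPM in CYST and at 923, 622 and 1140 TPM in MAT. The levels of replicate 1 were nearly equal in the 2 groups, while those of replicates 2 and 3 were 1.76 and 2.63 times as high in MAT. The Log2FC was 0.65 ± 0.39 (adjusted P = 0.391), and 0.73 ± 0.24 (adjusted P = 0.0988) with the replicate block. MMP11, stromelysin 3, which is usually made by stromal cells, and MMP14, the membrane-anchored protease that activates pro-MMP2, were covered by few reads. MMP11 was at 0.62 to 1.70 TPM in CYST and 1.26 to 2.95 TPM in MAT, from 10 to 42 reads a library. MMP14 was at 1.23 to 5.33 TPM in CYST and 1.70 to 2.55 TPM in MAT, from 14 to 78 reads a library. The Log2FC was 0.78 ± 0.70 for MMP11 (adjusted P = 0.578) and −0.53 ± 0.64 for MMP14 (adjusted P = 0.695). With SEs this large, such changes could not be told from none.

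TIMP1, a soluble inhibitor of most secreted MMPs, was present at 156, 183 and 115 TPM in CYST and at 297, 176 and 230 TPM in MAT. MAT was higher in replicates 1 and 3 and about equal in replicate 2, and the ranges overlapped (Log2FC 0.64 ± 0.22, adjusted P = 0.155; 0.61 ± 0.21, adjusted P = 0.108 with the replicate block). TIMP3, the inhibitor that is held in the matrix, was present at 405, 291 and 208 TPM in CYST and at 567, 400 and 166 TPM in MAT (Log2FC 0.32 ± 0.40, adjusted P = 0.706). In both groups replicate 1 was the highest and replicate 3 the lowest. TIMP1 lies inside the span of SYN1 and TIMP3 inside that of SYN3, each on the opposite strand, and the strand setting of the counting is not given in the sources used here. SYN1 did not exceed 4.20 TPM and SYN3 did not exceed 0.42 TPM in any library.

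TIMP2, an inhibitor that also takes part in the activation of pro-MMP2 by MMP14, differed far more between replicate numbers than between groups. It was present at 160, 18.5 and 278 TPM in CYST, at 121, 16.6 and 383 TPM in MAT and at 36.0, 20.8 and 341 TPM in MAT + COL. The libraries numbered 2 were the lowest and those numbered 3 the highest in each group. The Log2FC of MAT versus CYST was 0.10 ± 1.14 without the block and −0.05 ± 0.18 with it (adjusted P = 0.972 and 0.897), and its SE was larger without the block. MMP2, gelatinase A, which is not among the members, followed the same order, with 138, 26.3 and 249 TPM in CYST, 99.3, 5.36 and 377 TPM in MAT and 30.1, 21.4 and 340 TPM in MAT + COL. Over the 9 libraries, which share the replicate numbers, the Pearson correlation of TIMP2 and MMP2 on the log2 CPM scale was 0.97. In replicates 1 to 3, the summed stromal markers were at 2273, 3118 and 4889 TPM in CYST, 2148, 1212 and 3817 TPM in MAT and 2246, 2428 and 4330 TPM in MAT + COL. They were the highest in the libraries numbered 3 in each group, and their order was that of TIMP2 in MAT and not in CYST or MAT + COL. Their part in the TIMP2 and MMP2 values was not tested.

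**Figure D3:**
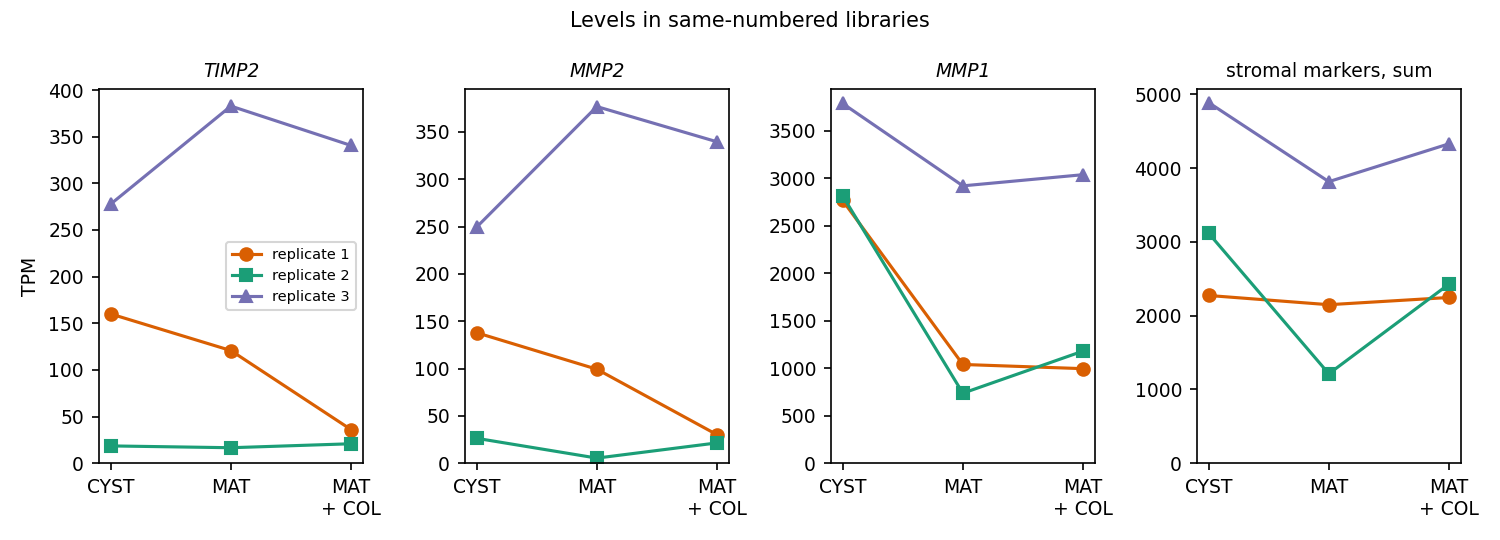
TPM of TIMP2, MMP2 and MMP1 and the summed TPM of 10 stromal fibroblast markers in CYST, MAT and MAT + COL, with lines joining libraries of the same replicate number. The lines of TIMP2 and MMP2 keep the order of the numbers in every group, and each line of MMP1 falls from CYST to MAT.

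The effect of collagen I in the presence of EGF was examined by comparing MAT + COL with MAT. No member passed the test in either fit, and 0% of the 12470 genes tested did so without the block and 0% with it. At an unadjusted P of 0.05, edgeR passed 51 genes without the block and 618 with it, and DESeq2 passed 81, with 0% of the 15582 genes it tested at an adjusted P of 0.05. Groups that did not overlap were found for 0 of 10 members, beside 3.57% of all genes tested. MMP13 was present at 2303, 2710 and 1758 TPM in MAT + COL, which was below the MAT library of the same number in each of the 3 replicates (0.667, 0.762 and 0.916 times). Its Log2FC was −0.47 ± 0.25 without the block and −0.44 ± 0.12 with it (unadjusted P = 0.109 and 0.00415, adjusted P = 1 and 0.955). Without the libraries numbered 3, a check chosen after seeing the data, the paired fit gave −0.58 for MMP13 (adjusted P = 0.0229) and 0.87 for MMP9 (adjusted P = 0.0330), beside 46 genes called in all.

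MMP3 was present at 1451, 1985 and 2211 TPM in MAT + COL, and its level in replicate 2 was 1.73 times that of MAT, while those of replicates 1 and 3 were 1.01 and 1.05 times. MMP1, at 996, 1181 and 3039 TPM, had the same pattern, with ratios of 0.957, 1.60 and 1.04. MMP9 was present at 104, 113 and 115 TPM, a narrower range than in the other groups. Its ratio to MAT was 1.52, 2.45 and 0.775 in replicates 1 to 3. MMP7 was present at 1290, 521 and 1086 TPM, TIMP1 at 246, 180 and 205 TPM and TIMP3 at 574, 381 and 234 TPM. The Log2FC of these 6 genes was 0.19 ± 0.32 (MMP3), 0.08 ± 0.67 (MMP1), 0.24 ± 0.43 (MMP9), 0.01 ± 0.37 (MMP7), −0.24 ± 0.22 (TIMP1) and −0.01 ± 0.43 (TIMP3). MMP11 and MMP14 were highest in MAT + COL replicate 3, at 8.34 and 6.18 TPM, and between 1.23 and 2.68 TPM in the other libraries of this group.

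MAT + COL was also set against CYST, a comparison that differs in both EGF and collagen I and uses the same CYST libraries as MAT versus CYST. MMP13 rose (Log2FC 2.15 ± 0.25, adjusted P = 0.0259; 2.17 ± 0.20, adjusted P = 0.0157 with the replicate block), beside 1.49% of the 12509 genes tested without the block and 5.26% with it. In the libraries numbered 1 to 3 its level was 6.14, 4.39 and 3.85 times that of CYST. The adjusted P without the block was 0.101 and 0.0834 when CYST replicates 1 and 2 were left out, and 0.0903 and 0.123 without MAT + COL replicates 1 and 2. MMP3 (−1.10 ± 0.27, adjusted P = 0.0786) and MMP9 (−1.07 ± 0.28, adjusted P = 0.0846) passed with the replicate block (−1.12 ± 0.18, adjusted P = 0.0327, and −1.01 ± 0.20, adjusted P = 0.0468) and without pairing in DESeq2 (adjusted P = 0.00408 and 0.00951), which called 11.6% of the 12284 genes it tested. The paired calls were lost without the libraries numbered 1 (adjusted P = 0.145 and 0.152) or numbered 2 (0.0884 and 0.0894), in fits that called 126 and 109 genes. The Log2FC of MMP3 was −0.98 and −1.28 in these fits, and that of MMP9 was −1.01 and −1.25. MMP1 was at −1.08 ± 0.24 with an adjusted P of 0.0545 in the paired fit. The groups of MMP13, MMP3 and MMP9 did not overlap, as in 24.7% of all genes tested. For MMP11, which was higher than CYST in each pair of libraries, the Log2FC was 1.70 ± 0.88 (adjusted P = 0.315). It was 0.30 without MAT + COL replicate 3, the library with 149 reads on this gene.

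The make-up of the MMP transcripts differed between the groups more than their sum. The summed TPM of the 7 MMPs was 7623 to 9273 in CYST, 6115 to 8240 in MAT and 6146 to 8223 in MAT + COL, and the ranges overlapped. MMP1 and MMP3 together made up 80.9% to 87.3% of this sum in CYST, 30.9% to 61.0% in MAT and 39.8% to 63.8% in MAT + COL. The share of MMP13 was 4.78% to 8.11% in CYST, 23.3% to 58.2% in MAT and 21.4% to 41.6% in MAT + COL. Within both EGF groups, replicate 3 had the lowest share of MMP13. The summed TPM of the 3 TIMPs was 493 to 721 in CYST, 593 to 986 in MAT and 582 to 855 in MAT + COL. The MMP sum was 10.9, 15.5 and 15.4 times the TIMP sum in CYST replicates 1 to 3, 7.02, 10.3 and 10.6 times in MAT and 7.19, 11.2 and 10.5 times in MAT + COL. It was lower with EGF for each replicate number, but the MAT + COL range overlapped that of CYST. These sums and shares were not tested, because they are made of the genes tested above.

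**Figure D4:**
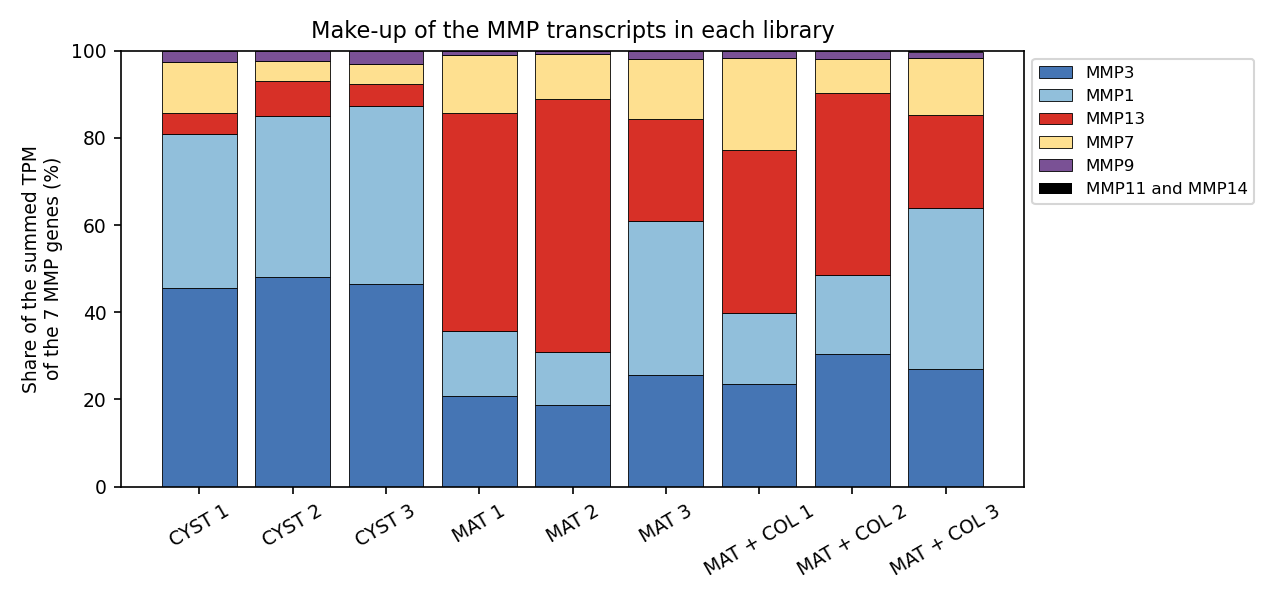
Share of each gene in the summed TPM of the 7 MMPs (%) in each of the 9 libraries, as stacked bars. MMP3 and MMP1 (blues) make up over 80% of each CYST bar, and MMP13 (red) makes up 21.4% to 58.2% of the bars with EGF.

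Of the 10 members, 4 lie in the MMP gene cluster of chromosome 15. In ARS-UCD2.0 coordinates, MMP13 (ENSBTAG00000015059) spans 5670871 to 5681601, MMP3 (ENSBTAG00000037768) 5779172 to 5785761, MMP1 (ENSBTAG00000015818) 5811627 to 5820952 and MMP7 (ENSBTAG00000004594) 6143363 to 6153606, each on the forward strand. From MMP13 to MMP7 the tables list 9 genes over 482.7 kb. MMP12, the macrophage elastase gene between MMP13 and MMP3, was at 43.5, 60.6 and 68.9 TPM on average in CYST, MAT and MAT + COL, and it did not pass (Log2FC of MAT versus CYST 0.53 ± 0.48, adjusted P = 0.579). MMP8 was listed at 0 in every library, MMP27 did not exceed 0.35 TPM and MMP20 did not exceed 4.13 TPM. MMP13, which rose, and MMP3 and MMP1, which fell in the paired analysis of MAT versus CYST, thus had their starts within 140.8 kb. An unnamed gene, ENSBTAG00000048029, begins 47.4 kb past the end of MMP1 on the opposite strand, where RefSeq places the protein-coding gene LOC112441463. It was present at 1282, 1663 and 1787 TPM in CYST, 460, 439 and 1507 TPM in MAT and 467, 719 and 1524 TPM in MAT + COL. In each EGF group its replicate 3 was the highest, as for MMP1, and whether reads were shared between these genes was not tested.

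**Figure D5:**
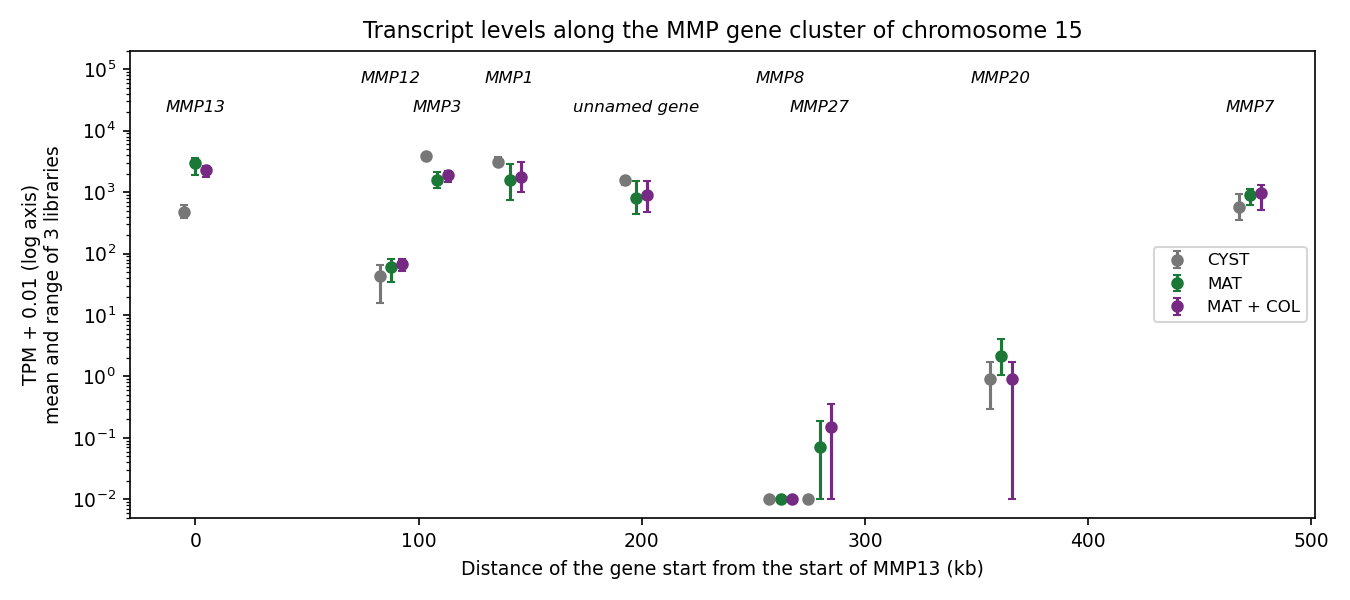
TPM + 0.01 (log axis; mean and range of 3 libraries) of the 9 genes from MMP13 to MMP7 against the distance of each gene start from that of MMP13 (kb); the groups are set 5 kb apart for legibility. MMP13 is higher with EGF, MMP3 is lower, the MMP1 and unnamed gene ranges overlap, and MMP8 lies at the floor.

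The remaining members are spread over other chromosomes, with MMP9 on chromosome 13 (74746976 to 74754303), MMP11 on chromosome 17 (71231176 to 71240510), MMP14 on chromosome 10 (21966320 to 21978292, reverse strand), TIMP1 on chromosome X (85938511 to 85943557), TIMP2 on chromosome 19 (53460836 to 53515224) and TIMP3 on chromosome 5 (71402254 to 71462452).

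The genes whose levels were most like those of the called members were sought by the Pearson correlation of log2 CPM over the 9 libraries among 11598 other genes with a mean of at least 1 TPM. The closest to MMP13 were VMAC (0.99), APEH (0.98) and CLDN23 (0.98), and the closest to MMP3 were C3H1orf54 (0.99), SPARCL1 (0.97) and IL17RB (0.97). For MMP9 they were TPM2 (0.98), RCN3 (0.98) and ANGPT2 (0.98), and for MMP1 they were PLBD1 (0.99), C5AR2 (0.98) and the unnamed neighbour ENSBTAG00000048029 (0.98). The points share the difference between CYST and EGF libraries and the replicate numbers, and the values are descriptions.

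Other genes of the MMP system were examined by lists. Of 16 further MMPs, 8 were tested in MAT versus CYST, and none passed in either fit. Of 4 further inhibitors, 3 were tested and none passed. TFPI2, a serine protease inhibitor of the matrix, was at 80.5, 73.7 and 164 TPM in CYST and 332, 606 and 189 TPM in MAT (Log2FC 1.73 ± 0.51, adjusted P = 0.112; 0.0741 with the replicate block). Among 11 genes of proenzyme activation, 10 were tested. PLAU alone passed, with the replicate block (0.91 ± 0.18, adjusted P = 0.0256), beside 10.6% of all genes tested. PLAU encodes urokinase, which makes plasmin, an activator of several pro-MMPs, and its mean was 840 TPM in CYST and 1588 TPM in MAT.

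Of the 5 genes of MMP docking and uptake, all tested, CD44 passed without and with the block and LRP1 with it. The rest of the list did not pass in MAT versus CYST. The median Log2FC of the 5 genes there was −0.04 without the block and −0.05 with it. In MAT versus CYST, 1.79% of all genes tested passed without the block and 10.6% with it. CD44, the hyaluronan receptor that can hold MMP9 at the cell surface, was at 73.1, 77.7 and 49.7 TPM in CYST and at 198, 173 and 143 TPM in MAT, and the groups did not overlap. Its Log2FC was 1.36 ± 0.19 (adjusted P = 0.0256). In MAT + COL, CD44 was at 155, 127 and 129 TPM (Log2FC against CYST 0.99 ± 0.16, adjusted P = 0.0383). LRP1, a receptor that clears MMPs and MMP-TIMP complexes, was higher in MAT by 1.31 ± 0.23 and in MAT + COL by 1.46 ± 0.23 on the log2 scale with the replicate block (adjusted P = 0.0177 and 0.0303).

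Of the 7 ADAM genes in the tables, 6 were tested in each comparison, and none of these passed. Of 19 ADAMTS genes, 9 were tested in MAT versus CYST. With the replicate block ADAMTS1 rose and ADAMTS4 fell, beside 10.6% of all genes tested that passed. Both ADAMTS genes encode proteases of proteoglycans such as versican and aggrecan. ADAMTS1 was at 22.0, 3.24 and 3.80 TPM in CYST and at 151, 36.4 and 61.3 TPM in MAT (Log2FC 3.40 ± 0.25, adjusted P = 0.00142; 3.13 ± 0.83, adjusted P = 0.0880 without the block). The Log2FC of ADAMTS4 was −1.27 ± 0.28 (adjusted P = 0.0333). Of 16 transcription factors known to act on MMP promoters, 14 were tested. With the replicate block, which called 10.6% of all genes tested, 3 AP-1 members passed. JUNB (0.80 ± 0.17, adjusted P = 0.0307) and JUND (1.22 ± 0.31, adjusted P = 0.0463) rose and FOSL1 fell (−1.96 ± 0.34, adjusted P = 0.0173). FOSL1 was at 7.42, 10.5 and 26.8 TPM in CYST and 2.70, 2.44 and 5.95 TPM in MAT.

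In MAT + COL versus CYST, the list genes that passed with the replicate block were CD44, LRP1, PLAU (0.80 ± 0.16, adjusted P = 0.0441), ADAMTS1 (2.88 ± 0.45, adjusted P = 0.0310) and FOSL1 (−1.63 ± 0.29, adjusted P = 0.0373), and CD44 alone passed without it. Of all genes tested, 5.26% passed with the replicate block and 1.49% without it. Of the cell type markers, KRT19 alone passed, with the block (1.01 ± 0.16, adjusted P = 0.0322). In MAT + COL versus MAT no gene of these lists passed in either fit.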

How the data were processed

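RNA-seq had been performed on 9 libraries. According to the study's methods, the authors prepared cDNA with a SMART-Seq kit, trimmed the reads and aligned them to ARS-UCD2.0 with CLC Genomics Workbench at default parameters. The annotation release, strand setting and test behind the DEGs are not given in the sources used here. The authors deposited counts (reads per gene, not normalized) and TPM values of 20679 genes. The labels gave each library's group and number. They give neither doses nor the source animal of a library, so that P-values without the block measure the spread between these libraries. Those with the replicate block measure the spread that remains once differences between replicate numbers are taken out.

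Counts were tested pairwise with edgeR 4.0.16 (quasi-likelihood, filterByExpr with a minimum count of 10, TMM, Benjamini-Hochberg adjustment over all genes tested, threshold 0.05) in R 4.3.3. SEs were derived from the F statistic. All 10 members passed the filter on low counts in every comparison. Alternatives were DESeq2 1.42.0, other size factors, no filter, a fit of all 9 libraries, the replicate block, limma 3.58.1 on log2(TPM + 1), each library left out, and the study's DEG criteria. The scripts were tested on simulated counts that held no differences between replicate numbers, so that this check cannot decide between the fits without and with the block. PCR reads without molecular identifiers are not independent molecules.

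The replicate numbers were taken to pair the samples: across 12858 genes, deviations from the group means correlated by 0.29 to 0.67 between same-numbered libraries and by −0.51 to 0.10 between others. The deviations within a group cancel out, so that higher values for same-numbered libraries lower those for the others. These ranges are thus not independent. The numbers themselves are those of the sample titles. The labels do not state that same-numbered libraries are pairs, and this was taken from the correlations. For MAT and MAT + COL, the study reports that its clustering separated libraries mainly by individual and not by added collagen I.

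The members and lists were chosen with earlier results of these data known. Of 80 list genes on the MMP system, 74 matched by symbol and 1 (MMP23) by a RefSeq synonym, and 5 were not analysed here (MMP10, MMP21, MMP26, ADAM8 and ADAM28). Named genes were all members, list genes with an adjusted P under 0.05 in either fit (up to 6 a list and comparison) and the 3 genes most correlated with each called member. TFPI2, MMP2, MMP12 and the genes between MMP13 and MMP7 were named outside this rule, after their values were seen. So were the epithelial, stromal and leukocyte markers KRT7, CLDN4, PAX8, COL1A2, CD3E, PTPRC, LCP1, CD14 and CD68. SYN1 and SYN3 were also named outside the rule, because they overlap TIMP1 and TIMP3.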

Additional observations from a re-analysis of the deposited data

How the results depend on the processing

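In both comparisons with CYST, MMP13, MMP3, MMP9 and MMP1 kept their directions under every alternative run. In MAT versus CYST, the number of members called was 1 without the block, 4 with the replicate block, 3 with DESeq2 (MMP13, MMP3 and MMP9) and 2 with limma (MMP13 and MMP3), and it ranged from 0 to 2 when a library was left out. All genes called numbered 216, against 1277 with the replicate block, 1235 with DESeq2, 239 with limma and 580 with all 9 libraries in the fit, and from 5 to 267 with a library left out. In MAT + COL versus CYST, 1 member was called, against 3 (MMP13, MMP3 and MMP9) with the replicate block and with DESeq2, and 0 to 1 with a library left out. All genes called numbered 186, against 658 (replicate block), 1419 (DESeq2), 601 (all 9 libraries) and 3 to 186 (a library left out). In paired fits without the libraries numbered 1, 2 or 3, chosen after seeing the data, 0, 3 and 4 members were called in MAT versus CYST, beside 0.289%, 5.11% and 15.3% of all genes tested. In MAT + COL versus CYST these were 1, 1 and 4 members beside 0.996%, 0.878% and 19.1%, and in MAT + COL versus MAT 0, 0 and 2 members beside 0%, 0.00799% and 0.368%. Fits with a library left out have fewer samples, and the cause of the other differences was not tested.

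The directions that reversed were of values that had not passed the test in the comparison concerned. In MAT versus CYST, the Log2FC of TIMP2 was −0.045 with the replicate block and −0.031 with limma, and with a library left out it ranged from −1.30 to 1.06, while that of MMP14 ranged from −0.89 to 0.30 and that of TIMP3 from −0.035 to 0.67. In MAT + COL versus MAT, the Log2FC of TIMP3 was 0.027 with total counts only, 0.068 with the replicate block and 0.15 with limma, and that of MMP7 was −0.026 with the replicate block. In the paired fit without the libraries numbered 2 it was −0.090 for MMP1 and −0.045 for MMP3. With a library left out, the ranges were −0.36 to 0.38 (TIMP3), −0.19 to 0.31 (MMP7), −0.66 to 0.96 (MMP1), −2.77 to 0.98 (TIMP2), −0.057 to 0.91 (MMP9), −0.49 to 1.32 (MMP11) and −0.31 to 0.96 (MMP14). In MAT + COL versus CYST, they were −0.82 to 0.86 (MMP14) and −2.65 to 0.67 (TIMP2). The replicate block changed no other call than those given with the results. Reads were fewest for MMP11 and MMP14, with as few as 10 and 14 in a library. The part of depth in their SEs was not tested.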
